A study of Mus musculus with 6 samples.

Results

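The genes described here make up the classical machinery of MHC class I antigen presentation, and their messenger RNA was compared between retina of mice with OIR and normal retina. The members were chosen by name, as the rows of the deposited gene count table whose symbol is H2-K1, H2-D1, B2m, Tap1, Tap2, Tapbp, Psmb8, Psmb9, Psmb10 or Nlrc5. Each of the 10 symbols had a single gene ID, so the set holds 10 of the 54532 genes in the table. The study measured total RNA of retina by RNA sequencing in 6 samples. The 3 normal samples and the 3 OIR samples all came from C57BL/6J mice of WT genotype at postnatal day 17. OIR commonly stands for oxygen-induced retinopathy, a mouse model of proliferative retinal vessel disease in which pups spend some days in high oxygen before going back to room air. For neither the oxygen exposure nor the number of animals per sample do the labels give details. The labels do not say that the 3 libraries of a group came from separate animals, so every p-value measures only the spread between these samples, which may be technical. The study's stated aim was to find transcriptional changes and a target linked to retinal vessel growth under hypoxia.

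MHC class I molecules are found on most nucleated cells and show short peptides from the cell's own proteins to CD8 T cells. The proteasome cuts proteins into peptides, the TAP transporter carries them into the endoplasmic reticulum, and tapasin holds an empty heavy chain and its light chain, beta-2 microglobulin, at the transporter until a peptide binds. Interferon raises most of these genes together, and Nlrc5 is the transactivator that acts at a shared promoter module of class I genes. Neural tissue carries little class I in the resting state, and in the retina class I genes are also known for roles in synapse formation.

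The 10 genes were higher in OIR retina in every pairing of an OIR library with a normal library. In edgeR's quasi-likelihood test with Benjamini-Hochberg adjustment over the 17108 genes tested, 8 of the 10 members were called higher at an adjusted p under 0.05 and 0 were called lower. Among all genes tested, 19.8% were called, 11.1% as higher and 8.73% as lower. All 10 members passed the filter on low counts. The OIR and normal libraries did not overlap in 10 of 10 members, with the OIR libraries above, against 18.7% of all genes tested. The median log2 change of the members was 0.88, and that of all genes tested was 0.01. The rises ran from 1.28-fold for Tapbp to 3.11-fold for Nlrc5. Tap2 and Psmb9 were the members that did not pass. In whole tissue, more cells that carry an RNA and more of that RNA per cell cannot be told apart.

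The call count depended on single libraries, while the direction did not. All 10 log2 changes were positive in every alternative fit. H2-K1, H2-D1 and B2m passed in 14 of 14 alternative fits. The number of members passing was 4 without Normal 3 and 4 without OIR 1, with Psmb10 as the fourth in the former and Nlrc5 in the latter. It was 9 without Normal 1, 7 without Normal 2, 6 without OIR 2 and 6 without OIR 3. At an adjusted p under 0.01, 3 members remained, the heavy chain genes H2-K1 and H2-D1 and the light chain gene B2m.

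Depth was 15818168 to 17163513 counts per library, and levels are given as CPM, the counts scaled to one library size with edgeR's TMM factors. The libraries were those of retina: the rod transducin gene Gnat1 averaged 9720 ± 430.2 CPM in the normal group and 7003 ± 392 CPM in the OIR group (SD, n = 3). Of 10 rod markers, 4 fell and 0 rose. Ribosomal RNA took 0.367 to 0.911% of counts and was highest in Normal 1. Lens markers differed between libraries of the same group, with summed levels of 10.8 to 521 CPM in normal libraries, 97.0 and 471 CPM in OIR 1 and OIR 2, and 7798 CPM in OIR 3. By Xist and Y-linked counts the normal group held 2 male libraries and 1 female library, and the OIR group 1 male library and 2 female libraries. Each library was given the sex with the larger count, so a pool of both sexes would not show. With sex as a covariate 7 members passed, and Tap1 no longer did.

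**Figure D1:**
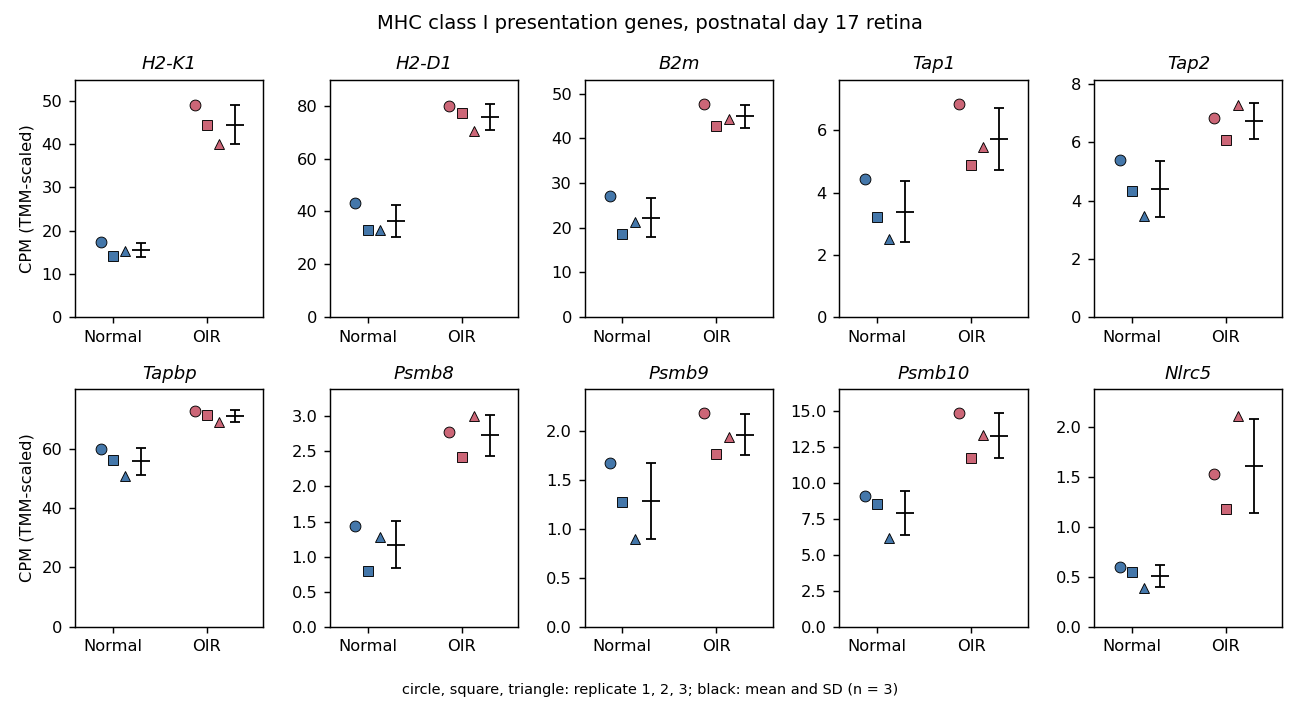
Level of each of the 10 genes in CPM (y axis from 0, TMM-scaled) in the 3 normal and 3 OIR libraries. Points are libraries, with the marker shape giving the replicate number, and the black bars are the mean and SD (n = 3). All 3 OIR points lie above all 3 normal points in each panel, and the gap is narrowest relative to the spread for Psmb9 and Tap1.

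The promoters of the heavy chain genes and of B2m are shown first, because these 3 genes passed in every alternative fit and share the promoter module at which Nlrc5 acts. The sequences are from RefSeq on GRCm38.p6, 5′ to 3′ on the strand of the gene, and give the bases before the RefSeq start of H2-K1 (chr17:34000348-34000547, minus strand) and of B2m (chr2:122147487-122147685, plus strand). Capitals mark matches to letters of 4 known elements: the kappaB-like enhancer A (GGG and CCC with any 5 bases between them), the interferon-stimulated element core (GAANNGAAA, here on the opposite strand), and the X2 box (TGACG) with the Y box (CCAAT, here read as ATTGG) 20 bases after it. Other spellings of these elements were not searched and are not capitalized.
H2-K1 promoter: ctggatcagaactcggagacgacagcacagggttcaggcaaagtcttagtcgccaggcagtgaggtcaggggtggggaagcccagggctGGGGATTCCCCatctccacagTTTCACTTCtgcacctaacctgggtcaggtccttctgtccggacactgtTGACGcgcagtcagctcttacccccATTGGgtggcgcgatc
B2m promoter: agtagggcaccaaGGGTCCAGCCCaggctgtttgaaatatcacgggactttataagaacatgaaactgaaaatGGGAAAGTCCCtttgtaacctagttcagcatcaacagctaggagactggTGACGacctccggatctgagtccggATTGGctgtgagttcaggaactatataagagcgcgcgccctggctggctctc

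The same X2 and Y letters at the same 20-base distance occurred in 3 of the 8 members that have a promoter window, which are H2-K1, H2-D1 and B2m. They also occurred in H2-M3, a heavy chain gene that presents formylated peptides, as the only match among 14 further heavy chain genes with a window. Of all 32851 promoter windows of the same length (250 bases before to 50 after a start), 31 held this pair on either strand, or 0.0944%. The 20-base distance was chosen after the sequences of the members were seen, so these counts describe the pattern and are no test of it. The stretches are printed for comparison, with the X2 and Y letters in capitals, at chr17:34000359-34000388 (minus strand), chr17:35262993-35263022 (plus), chr2:122147609-122147638 (plus) and chr17:37270188-37270217 (plus). All 30 bases of the H2-D1 stretch are annotated as exon in GENCODE vM21, and 0 bases of the H2-K1, B2m and H2-M3 stretches. Outside the 10 letters that the pattern fixes, H2-K1 and H2-D1 shared 13 of 20 bases, and H2-K1 and B2m shared 3 of 20.
H2-K1: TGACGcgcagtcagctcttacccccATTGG
H2-D1: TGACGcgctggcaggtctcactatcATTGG
B2m: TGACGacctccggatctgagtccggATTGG
H2-M3: TGACGcttctccaattcccattctaATTGG

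Upstream of that module, H2-K1 (chr17:34000429-34000458, minus strand) and H2-D1 (chr17:35262923-35262952, plus strand) carried enhancer A and the interferon-stimulated element core side by side. In GENCODE vM21 all 30 bases of the H2-D1 stretch are annotated as exon, and 0 of the H2-K1 stretch. The 30-base stretches were identical at 29 positions, and at 9 of the 10 bases outside the elements, and capitals mark both elements.
H2-K1: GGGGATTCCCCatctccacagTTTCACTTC
H2-D1: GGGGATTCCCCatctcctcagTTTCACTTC

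Searched on both strands, enhancer A letters occurred in 5 of the 8 member windows and in 14.0% of all windows, and the interferon-stimulated element core, in the spelling GAANNGAAA, in 2 of 8 and in 7.52% of all windows. The longer spelling gaaactgaaa, in the printed B2m promoter near GGGAAAGTCCC, was not matched by these 9 letters. These counts therefore do not show that B2m lacks such an element. The X2 letters alone occurred in 5 of 8 and 20.8% of windows, and the Y letters alone in 6 of 8 and 37.4%. The GAS-like letters TTCNNNGAA occurred in 1 of 8, Psmb8, and in 8.30% of windows. The paired X2 and Y pattern contains both of its cores, so those counts are not separate. Some RefSeq starts lay inside the deposited gene span, as for Tapbp (33919478, in a gene that starts at 33915899). A window can therefore miss other starts of a gene. A match is a description of letters and shows no binding.

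H2-K1 and H2-D1 encode the classical heavy chains of C57BL/6J mice, the molecules that hold the peptide. H2-K1 (ENSMUSG00000061232) lies on chromosome 17 from 33996017 to 34000333 in mm10, on the minus strand. It stood at 17.3, 14.1 and 15.3 CPM in Normal 1, 2 and 3 and at 49.0, 44.3 and 40.02 CPM in OIR 1, 2 and 3. The lowest OIR library was far above the highest normal library. The mean went from 15.6 ± 1.65 to 44.4 ± 4.48 CPM (SD, n = 3), a 2.85-fold rise with a log2 change of 1.51 (SE 0.11) and an edgeR adjusted p of 9.39e-06. Its log2 change ran from 1.434 to 1.597 over the alternative fits.

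H2-D1 (ENSMUSG00000073411; chromosome 17, 35262730 to 35267499, plus strand) was the more abundant heavy chain gene. Its levels were 43.3, 33.1 and 32.9 CPM in Normal 1, 2 and 3 and 79.7, 77.3 and 70.2 CPM in OIR 1, 2 and 3. The groups did not overlap, and Normal 1 was the nearest of the normal libraries to the OIR libraries. H2-D1 rose 2.08-fold, with a mean of 36.4 ± 5.97 CPM in the normal group and 75.7 ± 4.91 CPM in the OIR group (SD, n = 3), with a log2 change of 1.06 (SE 0.11) and an edgeR adjusted p of 0.000105. Of its 100-base transcript windows, 4.64% occur word for word in other genes, among them H2-T23 and H2-Q6, and 0% of those of H2-K1 do.

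B2m (ENSMUSG00000060802; chromosome 2, 122147686 to 122153083, plus strand) encodes beta-2 microglobulin, without which heavy chains do not reach the cell surface. It stood at 27.0, 18.6 and 21.2 CPM in Normal 1, 2 and 3 and at 47.7, 42.8 and 44.3 CPM in OIR 1, 2 and 3. All OIR libraries were above all normal libraries, and Normal 1 was again the highest normal library. B2m rose 2.02-fold, with a mean of 22.3 ± 4.33 CPM in the normal group and 44.9 ± 2.52 CPM in the OIR group (SD, n = 3), with a log2 change of 1.01 (SE 0.13) and an edgeR adjusted p of 0.000313.

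Ratios of heavy to light chain counts within a library need no scaling between libraries. The ratio of H2-K1 to B2m counts within a library was 0.641, 0.758 and 0.722 in Normal 1, 2 and 3 and 1.03, 1.04 and 0.903 in OIR 1, 2 and 3. The OIR ratios were 1.40-fold higher and did not overlap with the normal ratios. The ratio of H2-D1 to B2m was 1.64 ± 0.123 in normal and 1.69 ± 0.112 in OIR libraries (SD, n = 3), and the groups overlapped (two-sided exact permutation p of 0.6). The ratio of H2-K1 to H2-D1 went from 0.431 ± 0.0334 to 0.586 ± 0.0249 (SD, n = 3), 1.36-fold higher with no overlap. With 3 libraries against 3 the smallest p that the exact permutation test allows is 0.1. The H2-K1 to B2m and the H2-K1 to H2-D1 ratios both reached it, with adjusted values of 0.167 over 5 ratios, so neither difference can pass a threshold of 0.05.

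**Figure D2:**
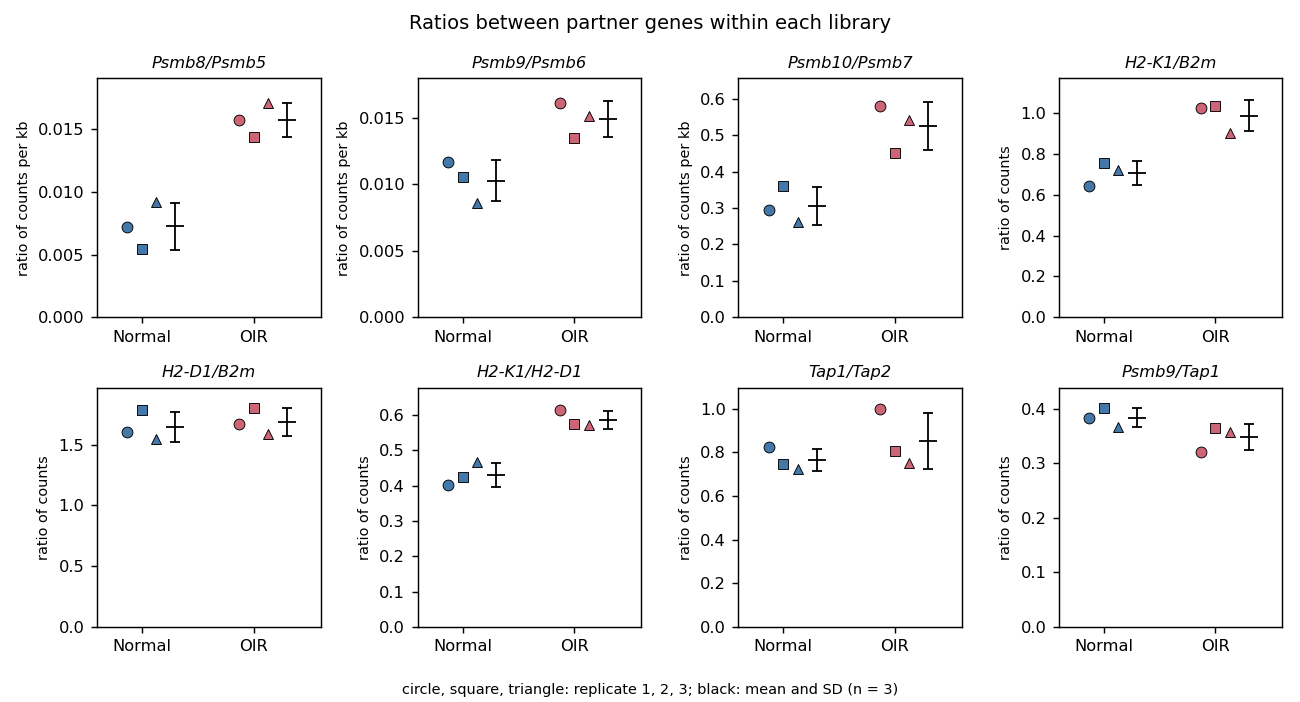
Ratios between partner genes within each library (y axes from 0, ratio of counts, per kb of gene length for the proteasome pairs), with libraries as points by replicate shape and mean and SD in black (n = 3). The OIR points lie above the normal points for the 3 proteasome pairs, H2-K1/B2m and H2-K1/H2-D1. They overlap for H2-D1/B2m and Tap1/Tap2 and lie below for Psmb9/Tap1.

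Tap1 and Tap2 encode the partner chains of the peptide transporter of the endoplasmic reticulum membrane. Tap1 (ENSMUSG00000037321; chromosome 17, 34187553 to 34197225, plus strand) stood at 4.43, 3.22 and 2.51 CPM in Normal 1, 2 and 3 and at 6.84, 4.89 and 5.47 CPM in OIR 1, 2 and 3. The groups came close, with Normal 1 just under OIR 2. Tap1 rose 1.69-fold, with a mean of 3.39 ± 0.973 CPM in the normal group and 5.73 ± 0.998 CPM in the OIR group (SD, n = 3), with a log2 change of 0.75 (SE 0.24) and an edgeR adjusted p of 0.0499. This call is at the threshold and was lost in 6 of 14 alternative fits: with sex as a covariate (adjusted p of 0.118) and without Normal 2 (0.1001), Normal 3 (0.179), OIR 1 (0.195), OIR 2 (0.0713) or OIR 3 (0.0799).

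Tap2 (ENSMUSG00000024339; chromosome 17, 34203527 to 34216321, plus strand) had 5.39, 4.32 and 3.47 CPM in Normal 1, 2 and 3 and 6.84, 6.07 and 7.29 CPM in OIR 1, 2 and 3. The groups did not overlap. Its mean was 4.39 ± 0.962 CPM in the normal group and 6.73 ± 0.613 CPM in the OIR group (SD, n = 3), with a log2 change of 0.61 (95% interval 0.18 to 1.05) and an edgeR adjusted p of 0.0511. Tap2 thus lay just outside the threshold that Tap1 just met, and it passed in 5 of 14 alternative fits. These were the fits without Normal 1 (adjusted p of 0.0197), with no filter (0.0288), with library totals alone (0.0383), with limma-voom (0.0486) and with at least 1 CPM in 3 libraries (0.04999), each of which called 9 members. The Tap1 to Tap2 count ratio was 0.765 ± 0.0514 in normal and 0.853 ± 0.131 in OIR libraries (SD, n = 3; two-sided exact permutation p of 0.4), with overlapping groups. Of the Tap2 exon bases, 14.1% overlap the noncoding gene Gm15821 on the opposite strand, and reads of such partners cannot be told apart without strand.

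Tapbp encodes tapasin, which bridges TAP and the empty heavy chain. The gene (ENSMUSG00000024308) lies on chromosome 17 from 33915899 to 33929288, on the plus strand. Its levels were 60.03, 56.3 and 50.7 CPM in Normal 1, 2 and 3 and 72.7, 71.3 and 68.9 CPM in OIR 1, 2 and 3. The OIR libraries lay close together and above all normal libraries. Tapbp rose 1.28-fold, with a mean of 55.7 ± 4.68 CPM in the normal group and 71.0 ± 1.92 CPM in the OIR group (SD, n = 3), the smallest fold of the 10 genes, with a log2 change of 0.35 (SE 0.08) and an edgeR adjusted p of 0.0120. The call was lost without Normal 3 (adjusted p of 0.0565), OIR 1 (0.0545) or OIR 2 (0.0517). Of its exon bases, 24.9% overlap the antisense gene Gm19412 and 4.11% the protein-coding gene Zbtb22 on the same strand.

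Psmb8, Psmb9 and Psmb10 encode the 3 catalytic subunits of the immunoproteasome, which replace the constitutive subunits of Psmb5, Psmb6 and Psmb7 and favour peptides that fit class I grooves. Psmb8 (ENSMUSG00000024338; chromosome 17, 34197721 to 34201454, plus strand) stood at 1.44, 0.791 and 1.29 CPM in Normal 1, 2 and 3 and at 2.77, 2.42 and 3.00 CPM in OIR 1, 2 and 3. All OIR libraries were clear of the normal libraries. Psmb8 rose 2.32-fold, with a mean of 1.17 ± 0.339 CPM in the normal group and 2.73 ± 0.292 CPM in the OIR group (SD, n = 3), with a log2 change of 1.21 (SE 0.30) and an edgeR adjusted p of 0.0165. The adjusted p was 0.0514 without Normal 3 and 0.0565 without OIR 1. Of the Psmb8 exon bases, 14.7% overlap the antisense gene Gm20496.

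Psmb9 (ENSMUSG00000096727; chromosome 17, 34181988 to 34187764, minus strand) had 1.68, 1.28 and 0.900 CPM in Normal 1, 2 and 3 and 2.18, 1.77 and 1.94 CPM in OIR 1, 2 and 3. Normal 1 lay just below OIR 2, so the groups were separated by a small gap. Its mean was 1.29 ± 0.389 CPM in the normal group and 1.96 ± 0.207 CPM in the OIR group (SD, n = 3), with a log2 change of 0.60 (95% interval −0.09 to 1.30) and an edgeR adjusted p of 0.213. It passed in 0 of 14 alternative fits.

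Psmb10 (ENSMUSG00000031897; chromosome 8, 105935735 to 105938444, minus strand) was the most abundant of the immunoproteasome genes. Its levels were 9.11, 8.52 and 6.17 CPM in Normal 1, 2 and 3 and 14.9, 11.7 and 13.3 CPM in OIR 1, 2 and 3, with no overlap. Psmb10 rose 1.68-fold, with a mean of 7.93 ± 1.55 CPM in the normal group and 13.3 ± 1.56 CPM in the OIR group (SD, n = 3), with a log2 change of 0.74 (SE 0.17) and an edgeR adjusted p of 0.0103. The adjusted p was 0.0523 without OIR 1.

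None of the constitutive partners was called with all libraries. Psmb5 averaged 54.7 ± 10.7 CPM in the normal group and 57.6 ± 1.43 CPM in the OIR group (SD, n = 3), with a log2 change of 0.07 (95% interval −0.19 to 0.34). The log2 changes of Psmb6 and Psmb7 were 0.08 and −0.04. Each of the 3 changes took the opposite sign in at least 1 alternative fit, and without Normal 1 Psmb5 passed at a log2 change of 0.25. Within libraries, the Psmb8 to Psmb5 ratio per kb of gene length was 0.00720, 0.00542 and 0.00916 in Normal 1, 2 and 3 and 0.0157, 0.0144 and 0.0171 in OIR 1, 2 and 3, or 2.21-fold higher. The Psmb10 to Psmb7 ratio went from 0.306 ± 0.0513 to 0.525 ± 0.0660 (SD, n = 3), or 1.72-fold, and the Psmb9 to Psmb6 ratio from 0.0103 ± 0.00156 to 0.0149 ± 0.00135 (SD, n = 3), or 1.46-fold. None of the 3 ratios overlapped between groups. Each had a two-sided exact permutation p of 0.1, the smallest possible here, and an adjusted value of 0.1 over the 3 ratios. These ratios depend on the length used, while their folds do not. With the length of the longest coding GENCODE transcript in place of the deposited gene length, the mean OIR level per kb was 2.62% of the constitutive partner for Psmb8, 1.70% for Psmb9 and 23.1% for Psmb10.

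Across the 14 genes of the constitutive 20S core, edgeR called 0 higher and 0 lower, 1 gene had an unadjusted p under 0.05, and DESeq2 and limma-voom called 0. The median log2 change of the core was 0.03. Without Normal 1, 2 of its genes were called higher. Its most abundant members, Psmb4 and Psma7, had log2 changes of 0.04 and 0.03. Among 9 activators and assembly factors, edgeR called 0, 1 gene had an unadjusted p under 0.05, and DESeq2 and limma-voom called 0. Psme1 and Psme2, the interferon-inducible cap subunits, had log2 changes of −0.03 and 0.13, and Psme3 and Psme4, the most abundant of the list, had −0.19 and 0.02. Without Normal 2, 1 gene of this list, Psme3, was called lower at −0.26.

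Nlrc5 (ENSMUSG00000074151; chromosome 8, 94434356 to 94527272, plus strand) had the lowest level of the 10 genes and, with all libraries, the largest fold. It stood at 0.599, 0.547 and 0.386 CPM in Normal 1, 2 and 3 and at 1.53, 1.18 and 2.12 CPM in OIR 1, 2 and 3. The OIR libraries varied more among themselves than the normal libraries, and the groups were well apart. Nlrc5 rose 3.11-fold, with a mean of 0.511 ± 0.111 CPM in the normal group and 1.61 ± 0.473 CPM in the OIR group (SD, n = 3), with a log2 change of 1.64 (SE 0.38) and an edgeR adjusted p of 0.0126. These values rest on 25 counts over the normal libraries and 82 over the OIR libraries. The adjusted p was 0.0674 without Normal 3 and 0.0630 without OIR 3. In both of those fits, and with sex as a covariate, its log2 change was below that of H2-K1, so the rank is not settled.

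Of the members, 7 lie on chromosome 17, between 33915899 and 35267499, and Psmb9, Tap1, Psmb8 and Tap2 sit together within 34334 bases. Psmb9 and Tap1 are read in opposite directions from a short shared interval, with 225 bases between their RefSeq starts, and longer transcripts of both overlap by 212 exon bases. The interval is shown because the 2 genes on either side of it differed in their calls. All bases of a 21-base stretch in it are annotated as exon in GENCODE vM21. This stretch, at chr17:34187470-34187490 on the Tap1 strand, holds the X2 letters and the enhancer A letters, in capitals.
Tap1 and Psmb9 interval: TGACGacagaGGGTCCTGCCC

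The Psmb9 to Tap1 count ratio was 0.383, 0.402 and 0.367 in Normal 1, 2 and 3 and 0.322, 0.365 and 0.358 in OIR 1, 2 and 3. The OIR ratios were slightly lower, by a factor of 0.907, and the groups were just apart (two-sided exact permutation p of 0.1, adjusted 0.167 over 5 ratios). This separation rests on the added 0.5. Without it the groups overlapped, at OIR 2 (30 over 83 counts) and Normal 3 (14 over 39), and the exact permutation p was 0.2. With 3 libraries against 3 this test cannot go below 0.1. A Tap1 that passed and a Psmb9 that did not are therefore not shown to differ in their change.

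Compared per kb of the deposited gene length, the members spanned more than 2 orders of magnitude in level. In normal libraries B2m was highest at 25.9 ± 5.04 CPM per kb, followed by Tapbp at 16.9 ± 1.42, H2-D1 at 14.1 ± 2.32, H2-K1 at 5.97 ± 0.632 and Psmb10 at 4.65 ± 0.910 (SD, n = 3). Tap2, Tap1, Psmb8 and Psmb9 lay between 1.16 and 0.351, and Nlrc5 was lowest at 0.0601 ± 0.0131. Tapbp and H2-D1 overlapped, as did Tap1 with Psmb8 and Psmb8 with Psmb9, so their order is not settled in normal retina. In OIR libraries H2-D1 was above Tapbp without overlap, at 29.4 ± 1.91 against 21.5 ± 0.582 CPM per kb (SD, n = 3). B2m stayed first at 52.2 ± 2.93 and Nlrc5 last at 0.190 ± 0.0557, and Tap1 with Psmb8 was the 1 neighbouring pair that overlapped. The order within the middle of the range depends on the length used. Per kb of the longest coding transcript, Tap2, Tap1, Psmb8 and Psmb9 overlapped from neighbour to neighbour in both groups, with Psmb9 at 0.951 above Psmb8 at 0.720 CPM per kb in normal libraries. On that scale H2-K1, at 27.4 ± 2.77, overlapped Tapbp, at 24.5 ± 0.662 CPM per kb, in OIR libraries (SD, n = 3).

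**Figure D3:**
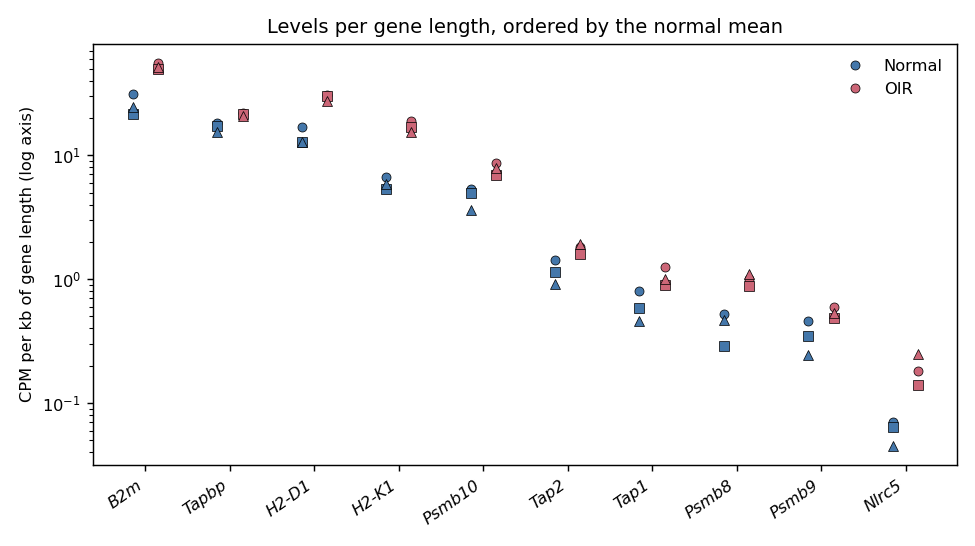
Level of the 10 genes per kb of gene length (log axis, CPM per kb), ordered by the normal mean, with each library as a point, normal in blue and OIR in red. H2-D1 lies at 14.1 CPM per kb beside Tapbp at 16.9 in normal libraries and above it, at 29.4 against 21.5, in OIR libraries.

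Libraries ranked alike across members. Within the normal group, Normal 1 was the highest library in 10 of 10 members, and in 39.96% of all genes tested. Within the OIR group, OIR 1 was highest in 7 members (32.05% of all genes tested) and OIR 2 lowest in 7 (32.58%). Normal 1 also had the highest summed level among the normal libraries for the constitutive 20S core (958 CPM against 832 and 817 in Normal 2 and 3) and for microglial markers (103.5 CPM against 90.3 and 87.3). The same held for endothelial (617 against 567 and 533 CPM), Müller glia (6214 against 5478 and 5370), pigment epithelium (485 against 272 and 349), erythroid, rod, and T and NK cell markers, but not for lens markers. Some pathway lists also differed. Normal 1 had the lowest normal sum for class I transcription regulators (539 against 571 and 566 CPM) and for interferon receptors and signalling (407 against 408 and 441). Normal 3 was highest for peptide trimming and loading (2066 CPM), proteasome activators and assembly (325) and class I receptors (1.8). Whether the members and the lists in which Normal 1 was highest move together for a common reason was not tested.

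Other class I heavy chain genes rose beside the 2 classical ones. Of 18 further heavy chain genes in the table, 11 passed the filter, 8 were called higher and 0 lower, with a median log2 change of 1.48. The Qa-2 antigen gene H2-Q7 was 6.13-fold higher, at 11.9 ± 1.82 CPM in the OIR group against 1.92 ± 0.332 CPM (SD, n = 3), with an edgeR adjusted p of 1.07e-05. H2-Q2 rose 5.45-fold, H2-Q6 3.99-fold and H2-Q4 2.79-fold. H2-T23, which encodes the Qa-1 molecule seen by NK cell receptors, rose 2.38-fold, with a mean of 4.11 ± 0.902 CPM in the normal group and 9.80 ± 0.673 CPM in the OIR group (SD, n = 3). H2-M3 rose 2.87-fold, H2-K2 1.502-fold, and H2-Q10 rose with 5 normal and 39 OIR counts. No protein-coding transcript of H2-K2 was found in GENCODE vM21, so its counts need not stand for a heavy chain. H2-K2 is included in the 8 called genes and in the sum over 20 genes below. Without OIR 2, H2-M3 and H2-Q10 did not pass (adjusted p of 0.0595 and 0.0551). H2-T22 (log2 change 0.48), H2-M5 (0.88) and H2-T24 (−0.24) were not called.

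These genes share sequence, so their counts can be split between copies. Windows of 100 bases found in other genes made up 16.4% of H2-Q7, 10.8% of H2-Q6, 7.28% of H2-T23 and 2.66% of H2-Q4. The sum over all 20 heavy chain genes does not depend on how reads were split among them. It can still depend on reads shared with genes outside the sum, such as Gm7030 for H2-D1 and H2-T23 and H2-Q5 for H2-Q7. The read filters are not given, so reads that fit several genes may also have been left out of the counts. The sum was 104.1, 90.3 and 89.4 CPM in Normal 1, 2 and 3 and 210.2, 201.6 and 189.6 CPM in OIR 1, 2 and 3. The groups were far apart, and the mean of 94.6 ± 8.24 CPM in the normal group became 200.4 ± 10.4 CPM in the OIR group (SD, n = 3), 2.12-fold higher. The two-sided exact permutation p was 0.1, the smallest possible with 3 against 3. H2-K1 and H2-D1 supplied 52.2 to 61.2% of the sum in each library.

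**Figure D4:**
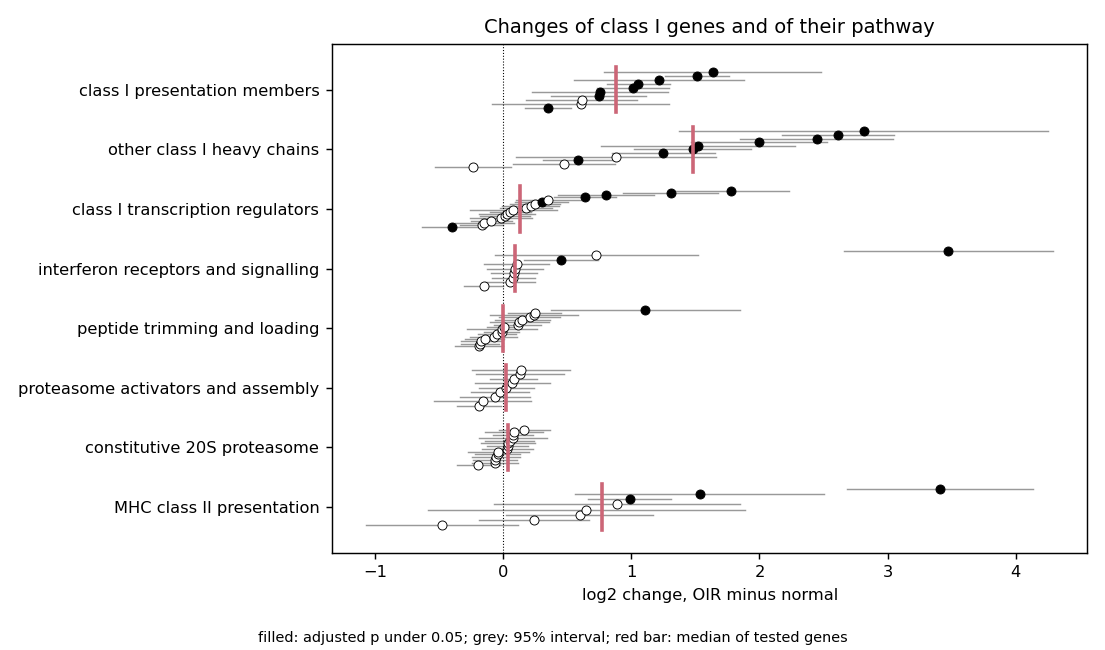
Log2 change of each tested gene (x axis, OIR minus normal, grey lines are 95% intervals) in the 10 class I genes and in lists of their pathway. Filled points have an edgeR adjusted p under 0.05 and red bars are list medians, which are 0.88 for the 10 genes, 1.48 for the other heavy chains and 0.03 for the constitutive 20S core.

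Of 16 tested genes of peptide trimming and chaperoning outside the named set, 1 rose and 0 fell. Among all genes tested, 11.1% were called higher and 8.73% lower. The median log2 change of the 16 genes was 0.00. The gene that rose was Cybb (log2 change 1.11, edgeR adjusted p of 0.0398), the phagocyte oxidase subunit, and the call was lost without each of the 6 libraries in turn and with DESeq2 (adjusted p of 0.0906). The general chaperone genes Calr and Canx, at 413 ± 27.0 and 400.1 ± 26.4 CPM in normal libraries (SD, n = 3), had log2 changes of −0.15 and −0.17. The trimming peptidase gene Erap1 had a log2 change of 0.20 and did not pass. Without Normal 2, 2 genes of the list fell, Canx being one at −0.23.

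Among 18 tested transcription regulators of class I genes, 5 rose and 1 fell, with a median log2 change of 0.13. The shares over all genes tested were 11.1% higher and 8.73% lower. Irf8, a factor of myeloid cells, rose 3.42-fold, with a mean of 2.23 ± 0.498 CPM in the normal group and 7.66 ± 0.576 CPM in the OIR group (SD, n = 3), with an edgeR adjusted p of 0.000206. Irf1, which binds the interferon-stimulated element of class I promoters, rose 2.47-fold, with a mean of 4.03 ± 0.187 CPM in the normal group and 9.97 ± 1.57 CPM in the OIR group (SD, n = 3), with an adjusted p of 0.000403. Irf9 rose 1.74-fold and Rela, a kappaB factor that binds enhancer A, 1.56-fold. Nfkb1 rose 1.23-fold with an adjusted p of 0.0447, a call lost in 9 of 14 alternative fits, among them those without Normal 1, Normal 3, OIR 1 or OIR 2. Rfx5, a subunit of the complex that holds Nlrc5 at the promoter, fell by 0.40 on the log2 scale (adjusted p of 0.0262), and did not pass without Normal 3 (adjusted p of 0.107), OIR 1 (0.0705) or OIR 2 (0.0891).

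The 3 interferon genes examined were at or near 0. Ifng and Ifna4 had 0 counts in all 6 libraries, and Ifnb1 had 0 normal and 3 OIR counts. Of 9 tested receptor and signalling genes, 2 rose and 0 fell, with a median log2 change of 0.09. Over all genes tested, 11.1% were called higher and 8.73% lower. Socs3, the feedback inhibitor induced by cytokines of several families, rose 11.1-fold, with a mean of 3.10 ± 0.328 CPM in the normal group and 34.6 ± 20.3 CPM in the OIR group (SD, n = 3), with an edgeR adjusted p of 0.000107. Without OIR 2 the Socs3 rise was 7.33-fold. Ifnar2 rose 1.37-fold (adjusted p of 0.0339), a call lost without each of the 6 libraries in turn. Ifngr1 and Ifngr2 had log2 changes of 0.09 and 0.05.

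RNA of the cells that read class I was scarce. Of 16 T and NK cell markers, 6 were at 0 in all libraries (Cd2, Trbc1, Gzma, Gzmb, Prf1 and Ncr1), and Lck was the 1 marker that passed the filter, with a log2 change of 0.60 (95% interval −0.30 to 1.49). The 16 markers summed to 1.16 to 2.04 CPM in normal and to 2.06 to 3.01 CPM in OIR libraries. Cd247 had 16 normal and 20 OIR counts. Of 10 genes listed as class I receptors, which are not all genes of T or NK cells, Cd8a alone was tested. It stood at 1.21 ± 0.103 against 2.10 ± 0.652 CPM (SD, n = 3, log2 change 0.79, edgeR adjusted p of 0.117). Its partner Cd8b1 had 0 and 1 counts and Klra2 8 and 14. The inhibitory receptor genes Pirb and Lilrb4a had 1 and 12, and 0 and 11 counts. The 10 listed genes summed to 20 to 28 counts in each normal and 39 to 60 counts in each OIR library, mostly from Cd8a and with no overlap.

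Markers of microglia and of endothelium were also higher in OIR libraries. Of 17 microglia and macrophage markers, 13 rose and 0 fell, with a median log2 change of 1.37, and none was at 0. Their summed level was 87.3 to 103.5 CPM in normal and 165.1 to 219 CPM in the OIR group, highest in OIR 1. The complement genes C1qa and C1qc had log2 changes of 2.01 and 1.94, Mrc1 2.43 and Laptm5 1.28. The markers not called were P2ry12 (log2 change 0.27), Tmem119 (0.17), Csf1r (0.42) and Aif1 (1.03). Of 15 endothelial markers, 12 rose and 1 fell, with a median of 1.21 and summed levels of 533 to 617 against 868 to 939 CPM. Eng, Vwf, Pecam1 and Robo4 had log2 changes of 1.55, 1.85, 1.13 and 1.53. The endothelial marker that fell was Ly6c1 (log2 change −1.365, edgeR adjusted p of 0.000524). Tek (−0.37) and Kdr (0.006) were not called. The part of these cell types in the rise of the class I genes was not tested.

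**Figure D5:**
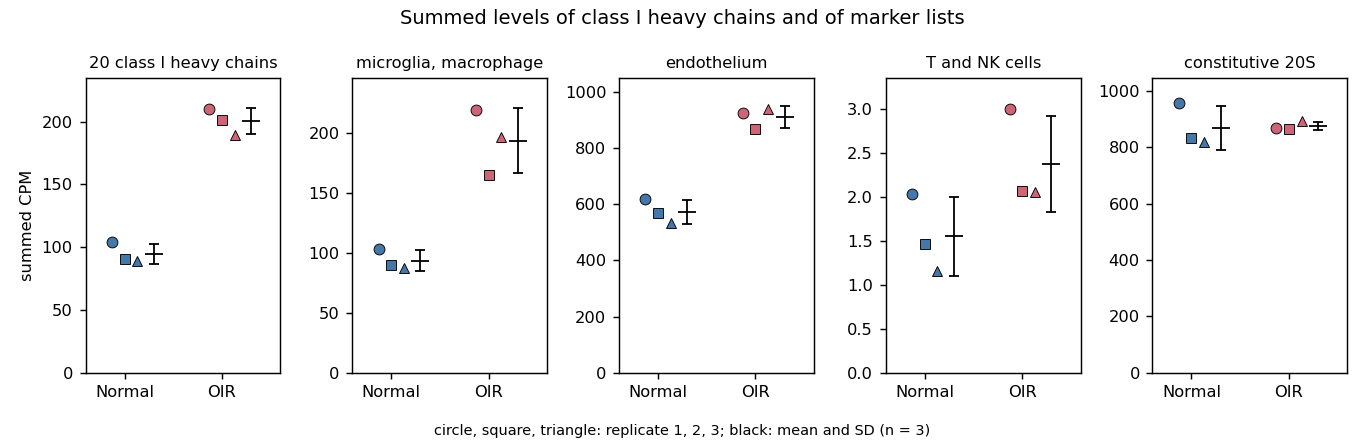
Summed CPM (y axes from 0) of the 20 heavy chain genes, of 3 marker lists and of the constitutive 20S core, with libraries as points by replicate shape and mean and SD in black (n = 3). Heavy chains rise from about 94.6 to 200.4 CPM beside microglial and endothelial markers, T and NK markers stay at 3.01 CPM or below, and the 20S core overlaps between groups.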

How the data were processed

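Per the labels' protocols, RNA came from a TRIzol extraction and libraries from the NEBNext Ultra RNA kit, whose standard form does not mark strand. Per the submitters' processing notes the genome build was mm10 and the tools named are featureCounts 1.5.0-p3, HISAT2 2.0.5, CASAVA 1.8, DESeq2 1.20.0 and fastp. Not given in the sources used here were annotation release, strand setting and read filters. The authors deposited raw counts per gene, with gene length and position as other deposited columns. Columns were matched to samples by name. OIR columns carry group, day and number, and the other columns of the same day were taken as the normal samples of that number. Counts of same-group libraries differed beyond sampling noise (7.20 to 23.1 chi-square per degree of freedom), so all 6 were kept.

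The main test was edgeR 4.0.16 in R 4.3.3 (quasi-likelihood, TMM scaling, filterByExpr with a minimum count of 10 and total of 15, no covariate), with Benjamini-Hochberg adjustment over 17108 genes. CPM values were computed from the deposited counts. Ratios within a library had 0.5 added to each count and were tested by two-sided exact permutation of the log2 ratios. Alternatives were DESeq2 1.42.0, limma 3.58.1 voom, median-of-ratios scaling, library totals alone, the replicate number as a block, sex as a covariate, no filter, at least 1 CPM in 3 libraries, a threshold of 0.01, and leaving out each library. Levels per kb of the longest coding transcript were an alternative chosen after seeing the data. Simulated counts were used to check the tests. Gene overlap was taken from GENCODE vM21, in which 99.8% of the gene IDs were found. Promoter windows from RefSeq (GRCm38.p6) matched 8 of the 10 members.

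The members and lists were chosen with earlier results of these data known. Named genes were the 10 members, Psmb5, Psmb6 and Psmb7, and from each list up to 4 genes with the smallest adjusted p under 0.05, or the 2 most abundant where fewer than 2 passed. Rfx5, Nfkb1, Ciita, H2-M3, H2-T23, H2-K2, H2-Q10, H2-T22, H2-T24, H2-M5, Cybb, Erap1, Psme1, Psme2, Ifngr1, Ifngr2, P2ry12, Tmem119, Csf1r, Aif1, Ly6c1, Tek and Kdr and the genes listed at 0 or by count alone were named after their values were seen, and the spacing of the X2 and Y letters was chosen after the sequences were seen.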

Additional observations from a re-analysis of the deposited data

How the results depend on the processing

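Over 14 alternative fits, all 10 members kept a positive log2 change. The number of members called higher was 4 to 9 when 1 library was left out and 3 at an adjusted p under 0.01. Over all genes, 1237 to 2097 were called higher and 761 to 1734 lower when 1 library was left out, and 1116 and 647 at the threshold of 0.01. The difference in the log2 H2-D1/B2m ratio, OIR minus normal, was 0.038 with all libraries. It was −0.00447 without Normal 3 and −0.012 without OIR 2. The cause of these shifts was not tested. Genes that were not called changed sign as follows. Psmb5 went to −0.022 and Psmb6 to −0.017 without Normal 3. Psmb7 went to 0.0047 with library totals alone, 0.0070 with sex as a covariate and 0.10 without Normal 1. Psme1 went to 0.014 with library totals alone, 0.036 without Normal 1 and 0.024 without OIR 2, and Psme4 to −0.016 with sex as a covariate, −0.079 without Normal 1 and −0.014 without OIR 3. Psmb4 went to −0.028, −0.012 and −0.0067 without Normal 2, Normal 3 and OIR 3, and Psma7 to −0.011 and −0.025 without Normal 2 and Normal 3. Ifngr2 went to −0.0031 and −0.012 without Normal 2 and OIR 3. The lens genes Cryaa and Cryba1, at 3.03 and 3.18 with all libraries, went to −0.14 and −0.28 without OIR 3. The other end of the range with 1 library left out was 0.25 for Psmb5, 0.20 for Psmb6, −0.11 for Psmb7, −0.13 for Psme1, 0.083 for Psme4, 0.15 for Psmb4, 0.13 for Psma7, 0.097 for Ifngr2, 3.61 for Cryaa and 3.86 for Cryba1.

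With the replicate number as a block, 8 members, 1680 genes higher and 1166 lower were called, and Rfx5, Nfkb1, Ifnar2 and Cybb were no longer called (adjusted p of 0.0584, 0.0777, 0.0599 and 0.0670). The same-numbered libraries had correlations of 0.061, −0.16 and 0.074 in their deviations from the group means, so the numbers were not taken as pairs. The ratios kept their values under the block, where the smallest exact p is 0.25, which says nothing about their stability. Depth limits the members with the lowest levels, Nlrc5, Psmb8 and Psmb9, at 0.511, 1.17 and 1.29 CPM in normal libraries.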

Other observations

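The class II pathway, which presents peptides to CD4 T cells, was uneven. Of 8 tested genes, 3 rose and 0 fell, with a median log2 change of 0.77. H2-Ab1, the class II beta chain gene, rose 10.6-fold, with a mean of 1.04 ± 0.716 CPM in the normal group and 11.1 ± 1.25 CPM in the OIR group (SD, n = 3), with an edgeR adjusted p of 5.71e-05. Its alpha chain partner H2-Aa had 8 counts over the normal and 21 over the OIR libraries, too few to be tested, against 50 and 563 for H2-Ab1. Without Normal 3 the H2-Ab1 rise was 17.2-fold. The invariant chain gene Cd74 rose 2.89-fold (adjusted p of 0.0331) but did not pass without Normal 2, Normal 3, OIR 1, OIR 2 or OIR 3 (adjusted p of 0.0704 to 0.124) and was 5.25-fold higher without Normal 1, and the protease gene Ctss rose 1.98-fold. The class II transactivator gene Ciita had a log2 change of −0.48 (95% interval −1.07 to 0.12) beside the 1.64 of Nlrc5, the class I transactivator.

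Of 6 tested class I-like genes, 3 rose and 0 fell, with a median log2 change of 0.53. Ulbp1, a ligand of the NK receptor NKG2D, rose 6.06-fold, with a mean of 0.474 ± 0.218 CPM in the normal group and 2.91 ± 0.222 CPM in the OIR group (SD, n = 3), with an edgeR adjusted p of 0.000665. Procr, the endothelial protein C receptor, rose 5.51-fold, with a mean of 0.446 ± 0.236 CPM in the normal group and 2.51 ± 0.593 CPM in the OIR group (SD, n = 3). Fcgrt, the neonatal Fc receptor that pairs with B2m, rose 1.55-fold with an adjusted p of 0.0188, and did not pass without Normal 3, OIR 1 or OIR 2.

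Other marker lists moved too. Of 11 Müller glia markers, 2 rose (Crym and Sox9) and 6 fell, among them Abca8a and Aqp4. Of 10 pigment epithelium markers, 7 fell, among them Rgr, Rdh5, Lrat and Ttr. Of 5 erythroid genes, 4 rose (Hbb-bs, Hba-a1, Hba-a2 and Hbb-bt), and globin counts can be split between near-identical copies. Hbb-bt did not pass without Normal 2 (adjusted p of 0.0788), Normal 3 (0.0870), OIR 2 (0.0995) or OIR 3 (0.0923).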
